A study of Mus musculus with 5 samples.

Results

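The genes described here were 8 chemokines of the CC family that attract monocytes or eosinophils (Ccl2, Ccl6, Ccl7, Ccl8, Ccl9, Ccl11, Ccl12 and Ccl24), the monocyte chemokine receptor gene Ccr2, and Pf4, which encodes platelet factor 4. They were taken by gene symbol, 10 genes of the 32285 features listed for the T cell libraries and of the 54987 listed for the whole-tumor libraries, and each symbol matched 1 feature with the same Ensembl gene in both lists. Ccr2 encodes a receptor and Pf4 a chemokine of the CXC family, so 8 of the 10 were CC chemokines. The rule names symbols and uses no measured value, but the list was drawn up with earlier results of these data known.

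Chemokines are small secreted proteins that bind receptors on leukocytes and direct their movement along a gradient. Ccl2, Ccl7 and Ccl12 act on Ccr2, which classical monocytes carry when they leave the blood for a tumor or an inflamed tissue and lose as they mature into macrophages. Ccl11 and Ccl24 are eotaxins, ligands of the receptor Ccr3 on eosinophils, and mouse Ccl8 acts mainly through Ccr8, a receptor of T cells. Ccl6 and Ccl9 are rodent chemokines that act through Ccr1. Pf4 is stored in platelets, and its transcript is also found in macrophages.

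The data were 5 droplet single-cell libraries of 4T1 tumors, a mouse mammary carcinoma line implanted in mammary fat of BALB/c mice aged 12 weeks. All tumors carried the same cancer cell line and all hosts were immunocompetent. Doxorubicin (DOX) was given intravenously at 5 mg/kg in 3 doses, 3 days apart, and tumors were called sensitive or resistant by their growth. Of the libraries, 2 held T cells of DOX-treated tumors, sensitive in 1 library and resistant in the other, enriched on magnetic columns that held back other leukocytes and the cancer cells, and 3 held whole tumor (a saline-treated control, a DOX-treated sensitive and a DOX-treated resistant tumor). The T cell libraries pooled 3 tumors each, and every group was 1 library. The whole-tumor library titled resistant carries a source field that names a sensitive tumor, and the control library's source field names a sensitive tumor given saline, so whole-tumor libraries are named here by title. Fewer cells of a type passing the depletion and fewer such cells in the tumor cannot be told apart, so gate sizes are given as counts only. With 1 library per group there was no replicate check and no test, and every interval below is a 95% interval for counting error only.

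Total depth was 31690845 and 35908799 unique molecular identifiers (UMIs) in the sensitive and resistant T cell libraries and 537293 to 1731940 UMIs in the whole-tumor libraries, and 6539 and 1020 cells were kept. Cells were assigned to lineage gates by the number of detected marker genes of 8 per lineage, none of them among the 10 genes. The T cell libraries still held 800 fibroblasts, 164 macrophages, 21 monocytes, 136 neutrophils, 26 dendritic cells, 95 cancer cells and 1983 T or natural killer (T/NK) cells in the sensitive library, and 584, 135, 35, 160, 45, 120 and 1836 in the resistant one. The median fibroblast, macrophage, cancer cell and T/NK cell of either library had 7 or 8 of its 8 markers, while the median dendritic cell had 4 or 3. Both T cell libraries shared 31 barcodes, 18 of them among the kept cells. No cell of any library had 3 or more of 8 eosinophil markers, and none had 3 or more of 8 platelet markers.

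On the mouse genome (GRCm38), 7 of the 10 genes lie on chromosome 11 in a pair of clusters. Ccl2 (82035571 to 82037453), Ccl7 (82045712 to 82047525), Ccl11 (82057823 to 82062955), Ccl12 (82101845 to 82103400) and Ccl8 (82115185 to 82116799) follow each other on the plus strand with no other protein-coding gene between them, at gaps of 8258 to 38889 bases. Ccl9 (83572919 to 83578636) and Ccl6 (83587882 to 83593087) form the second cluster on the minus strand, 1456119 bases beyond Ccl8 and 9245 bases apart. Ccl24 (135569937 to 135573049, minus strand) and Pf4 (90772435 to 90773383, plus strand) lie on chromosome 5, and Ccr2 (124101950 to 124113557, plus strand) on chromosome 9. The longest exact run shared by the transcripts of any 2 of the 10 genes was 25 bases (Ccl6 and Ccl9), and no pair shared a run of 30 bases or more.

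RefSeq promoter sequences on GRCm38.p6 were found for 6 of the 10 genes, and the 250 bases before the start are shown for the adjacent pair led by macrophages (Ccl12, chr11:82101595-82101844, plus strand, and Ccl8, chr11:82114935-82115184, plus strand) and for the adjacent pair shared by macrophages, monocytes and, for Ccl6, neutrophils (Ccl6, chr11:83593088-83593337, minus strand, and Ccl9, chr11:83578637-83578886, minus strand). Capitals mark each match to TATAAA on either strand.
Ccl12: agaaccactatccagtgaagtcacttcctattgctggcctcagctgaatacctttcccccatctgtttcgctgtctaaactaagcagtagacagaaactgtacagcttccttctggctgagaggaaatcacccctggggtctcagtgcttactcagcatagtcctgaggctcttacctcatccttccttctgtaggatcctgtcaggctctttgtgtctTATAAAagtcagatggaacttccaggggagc
Ccl8: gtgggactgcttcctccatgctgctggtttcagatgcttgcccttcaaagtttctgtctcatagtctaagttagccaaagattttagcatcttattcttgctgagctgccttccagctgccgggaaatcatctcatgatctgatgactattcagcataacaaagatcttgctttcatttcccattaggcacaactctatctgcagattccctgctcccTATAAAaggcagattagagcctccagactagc
Ccl6: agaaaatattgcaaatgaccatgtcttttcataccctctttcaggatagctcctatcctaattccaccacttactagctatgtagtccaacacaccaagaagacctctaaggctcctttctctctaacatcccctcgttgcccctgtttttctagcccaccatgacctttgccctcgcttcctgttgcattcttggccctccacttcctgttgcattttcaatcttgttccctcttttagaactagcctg
Ccl9: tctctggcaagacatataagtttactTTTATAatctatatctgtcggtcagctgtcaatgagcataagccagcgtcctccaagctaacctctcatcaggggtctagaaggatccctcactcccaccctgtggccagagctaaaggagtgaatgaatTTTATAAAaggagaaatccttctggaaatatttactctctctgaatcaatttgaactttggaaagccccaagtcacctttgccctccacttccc
TATAAA was found in 3 of the 6 promoters (Ccl12, Ccl8 and Ccl9) and in 12.4% of 32851 promoters of the same length. In Ccl12 and Ccl8 the match began 31 and 32 bases before the start on the gene's own strand. GAGGAA, the core of sites bound by the myeloid factor PU.1, was found on either strand in 3 of the 6 (Ccl12, Ccl8 and Pf4) and in 23.3% of all promoters. TGANTCA (AP-1) was found in Ccl9 alone and in 6.75% of all promoters, and TTCNNNGAA (STAT) and an NF-kB motif in none of the 6, against 7.02% and 0.356% of all promoters. These are matches of letters in a window and say nothing of binding.

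The question put to the T cell libraries was which lineages carried these transcripts and how their levels differed between tumors that did and did not respond to DOX. Levels are CPM, the UMIs of a gene summed over the cells of a gate and scaled to the total UMIs of those cells. In both T cell libraries 8 of the 10 genes had over 50% of their UMIs in a single gate, fibroblasts for Ccl2, Ccl7 and Ccl11 and macrophages for Ccl12, Ccl24, Ccl6, Ccl9 and Pf4. Ccl8 was split between fibroblasts and macrophages, and Ccr2 among T/NK cells, macrophages and monocytes. Along the first cluster of chromosome 11, the first 3 genes (Ccl2, Ccl7, Ccl11) thus had most of their UMIs in fibroblasts and the last 2 (Ccl12, Ccl8) their highest level in macrophages. No gene reached 50 UMIs over both libraries in the dendritic or the cancer cell gate.

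**Figure D1:**
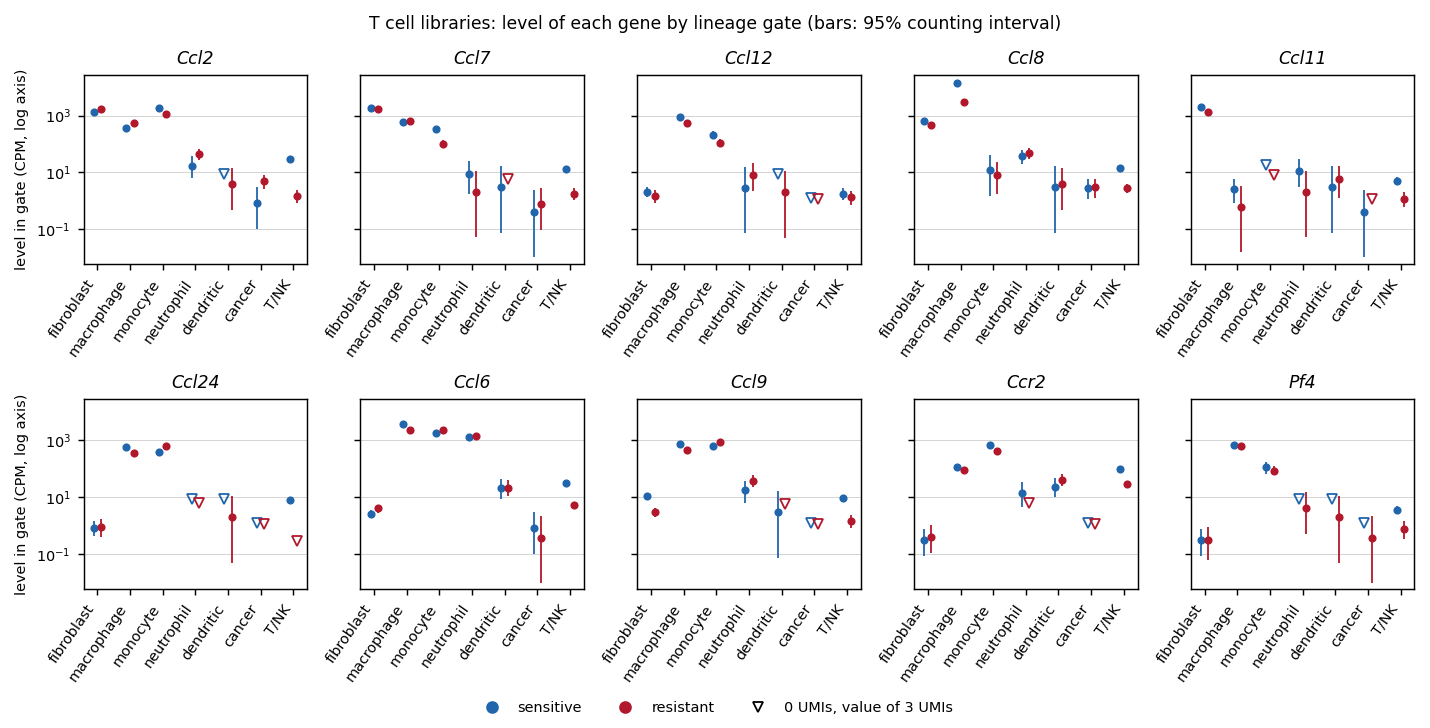
Level of each of the 10 genes (CPM, log axis) in 7 lineage gates of the sensitive (blue) and resistant (red) T cell library, with bars for the 95% counting interval and open triangles, at the value of 3 UMIs, where a gate had 0 UMIs. Ccl11 was high in fibroblasts alone, Pf4 in macrophages, Ccl12, Ccl24 and Ccl9 in macrophages and monocytes, and Ccl6 also in neutrophils.

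Between the T cell libraries, a gene was called past 2-fold when its level differed at least 2-fold either way and the counting interval of the ratio left out 1, among genes with at least 50 UMIs in the gate. In fibroblasts 1 of 6 such genes was past 2-fold (Ccl9), against 4.00% of all 11184 genes tested there. In macrophages it was 1 of 9 (Ccl8), against 2.61% of 5981 genes, and in monocytes 1 of 8 (Ccl7), against 6.95% of 1454 genes. The fibroblast count was 2 without doublet removal (Ccl6 joining at 0.395), and the monocyte count was 3 with 1 more marker required per gate (Ccl2 and Ccl12 joining) and 2 with the mean over cells (Ccl12 joining). In neutrophils Ccl6 was the only gene with enough UMIs and was not past 2-fold (background 5.02%), and no gene could be compared in dendritic cells (background 3.48%) or cancer cells (background 2.29%). In T/NK cells all 8 genes with enough UMIs were past 2-fold and higher in the sensitive library, against 4.93% of 10095 genes, but for Ccl2, Ccl6, Ccl7 and Ccl24 most of the UMIs of the sensitive library there lay in few cells, as given below. Of these only Ccr2 and Ccl6 had 50 UMIs or more in each library. The others had 0 to 29 in the resistant library and passed the filter through the sensitive one, so this count in 1 direction depends on the filter. In the same way fibroblast Ccl9 and monocyte Ccl7 had 29 and 37 UMIs in the resistant library. The median ratio, sensitive over resistant, was 1.24 for the genes compared in fibroblasts, 1.56 in macrophages and 1.45 in monocytes, beside 1.06, 1.02 and 1.02 for all genes tested.

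**Figure D2:**
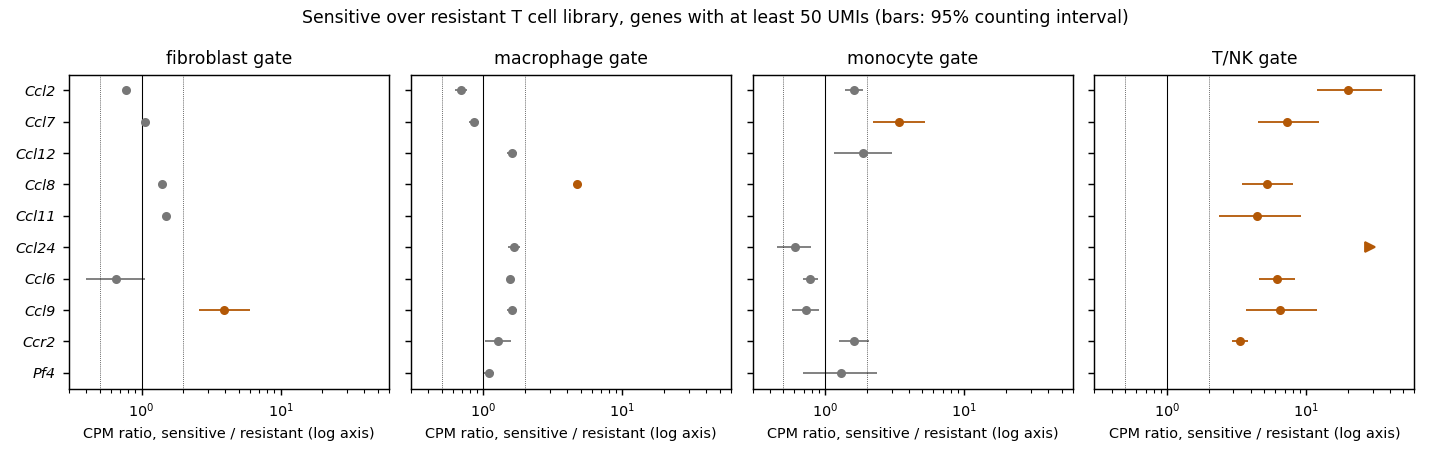
Ratio of the level in the sensitive over the resistant T cell library (log axis) for genes with at least 50 UMIs in each of 4 gates, with 95% counting intervals, orange where past 2-fold and an arrow for Ccl24, which had 0 UMIs in resistant T/NK cells and is drawn with 3 UMIs set there. Macrophage Ccl8 stood at 4.68 and the other macrophage genes between 0.691 and 1.66.

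Ccl2, the main monocyte attractant, was a fibroblast and monocyte transcript. Fibroblasts held 1317 CPM (1297 to 1337) in the sensitive library and 1698 CPM (1673 to 1724) in the resistant one, which was 88.6% and 88.2% of all its UMIs. Monocytes held 1894 and 1183 CPM and macrophages 376 and 545 CPM, so the order of fibroblasts and monocytes differed between the libraries while macrophages came below both. Neutrophils held 17.3 and 44.0 CPM and cancer cells 0.845 and 4.92 CPM. The cancer cell values came from 2 UMIs in 95 cells and from 13 UMIs, all in 1 cell, among 120 cells. Sensitive over resistant, the ratio was 0.775 (0.759 to 0.792) in fibroblasts, 0.691 (0.626 to 0.764) in macrophages and 1.60 (1.38 to 1.85) in monocytes. With 1 more marker required per gate the monocyte ratio was 2.09, past 2-fold. The monocyte values rested on 21 and 35 cells, of which the highest cell gave 32.9% and 34.7% of the UMIs. At a common depth of 1000 UMIs per cell, 34.0% and 35.8% of fibroblasts had a Ccl2 UMI, and at full depth 59.1% and 65.9% did, at a median of 13324 and 13699 UMIs per cell. The background share in T/NK cells was 0.406% and 0.109% at the common depth, and 1.82% and 0.763% at full depth, at a median of 4023 and 4522 UMIs.

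Ccl7, encoded next to Ccl2 and acting on the same receptor, followed it into fibroblasts. Its fibroblast level was 1879.7 CPM (1856 to 1903) in sensitive tumors and 1769 CPM (1743 to 1795) in resistant ones, and the ratio was 1.06 (1.04 to 1.08). Macrophages held 575 and 670.2 CPM, a ratio of 0.858 (0.788 to 0.934). Monocytes held 338 and 101 CPM, a ratio of 3.36 (2.19 to 5.24), past 2-fold, from 57 and 37 UMIs in 5 cells of each library. Within fibroblasts a Ccl7 UMI was more frequent in cells with a Ccl2 UMI than in cells without: at the common depth 79.5% of the Ccl2-positive fibroblasts of the sensitive library had a Ccl7 UMI, and 41.1% of the others did. In the resistant library these shares were 76.1% and 38.0%. Macrophages showed the same order, 55.2% against 12.7% in the sensitive and 67.9% against 6.54% in the resistant library. These shares compare cells of 1 library with each other and carry no test.

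Ccl12, the third Ccr2 ligand, was a macrophage transcript. Sensitive and resistant macrophages held 909 and 564 CPM (ratio 1.61, 1.49 to 1.75), 90.9% and 87.2% of all its UMIs. Monocytes held 208 and 111 CPM (ratio 1.86, 1.15 to 3.00), of which 1 cell gave 54.3% and 82.9%, and without the highest cell of each library the ratio was 4.87, from 16 and 7 UMIs. With the mean over cells it was 4.76, past 2-fold. Fibroblasts held 2.08 and 1.50 CPM, from 27 and 15 UMIs. At the common depth 35.6% and 25.9% of macrophages had a Ccl12 UMI.

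Ccl8 showed the largest difference of the 10 genes in macrophages. Its macrophage level was 13877 CPM in the sensitive library, from 26501 UMIs in 164 cells, and 2962 CPM in the resistant library, from 4787 UMIs in 135 cells. The ratio was 4.68 (4.54 to 4.83), and 4.98 without the highest cell of each library. In the single macrophage, the median was 3.05 Ccl8 UMIs per 10000 in the sensitive library and 0 in the resistant one, the upper quartile 53.5 against 8.87 and the 90th percentile 442 against 68.8. At the common depth 45.4% of sensitive and 26.7% of resistant macrophages had a Ccl8 UMI, beside 1.68% and 0.382% of T/NK cells. Thus both the share of macrophages with Ccl8 and the amount in the upper cells were higher in the sensitive library. Fibroblasts held 666 and 473 CPM, a ratio of 1.41 (1.36 to 1.46) that was not past 2-fold, and monocytes 11.9 and 8.16 CPM from 2 and 3 UMIs.

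Macrophages were also split by a UMI of Folr2, the folate receptor beta gene that marks tissue-resident macrophages. Folr2 was chosen from 9 macrophage genes after the Ccl8 values had been seen, so the split describes where the Ccl8 UMIs lay and assigns the difference to no cell group. It was found in 53 of the 164 macrophages of the sensitive library and in 15 of the 135 of the resistant one. These cells held 24620 of the 26501 Ccl8 UMIs in the sensitive library and 2828 of the 4787 in the resistant one, at 34555 and 13622 CPM, a ratio of 2.54 (2.44 to 2.64). In macrophages with no Folr2 UMI, Ccl8 stood at 1571 and 1391 CPM, a ratio of 1.13 (1.06 to 1.20), which was not past 2-fold. In these cells 1 of 9 genes was (Ccl7), against 1.62% of 5054 genes. Of the other genes, Ccl12 had a ratio of 4.57 (3.60 to 5.87) in macrophages with a Folr2 UMI and 0.830 (0.746 to 0.923) in the rest, and Ccl7 1.09 (0.938 to 1.27) and 0.388 (0.339 to 0.445). In the same order Ccl6 had 1.50 and 0.863, Ccl9 1.95 and 0.899, Ccl2 0.786 and 0.561, and Ccl24 1.90 and 1.87. Pf4, at 1.09 over all macrophages, was below 1 in both parts, at 0.494 and 0.796. Ccr2 had 3.75 (1.75 to 9.58), from 90 and 7 UMIs, and 1.12. A split by Mrc1, a marker used for the macrophage gate, was also made. The Ccl8 ratio was 4.23 (4.10 to 4.36) in macrophages with a Mrc1 UMI (110 and 89 cells). In those without (54 and 46 cells) it was 2.04 (1.67 to 2.48), so Ccl8 was past 2-fold in both parts. In the sensitive library macrophages with a Ccl8 UMI also held the scavenger receptor gene Cd163 (758 CPM, in 24 of 100 cells, against 0 UMIs in the other 64), at a median depth of 11059 and 12266 UMIs. In the resistant library Cd163 stood at 16.3 CPM in the 61 macrophages with Ccl8, found in only 3.28% of them, and at 0 UMIs in the other 74. Ccl8 and the eotaxin Ccl24 seldom shared a macrophage of the sensitive library: 9.46% of Ccl8-positive cells had a Ccl24 UMI at the common depth against 36.0% of the others, and 13.9% against 25.3% in the resistant library.

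**Figure D3:**
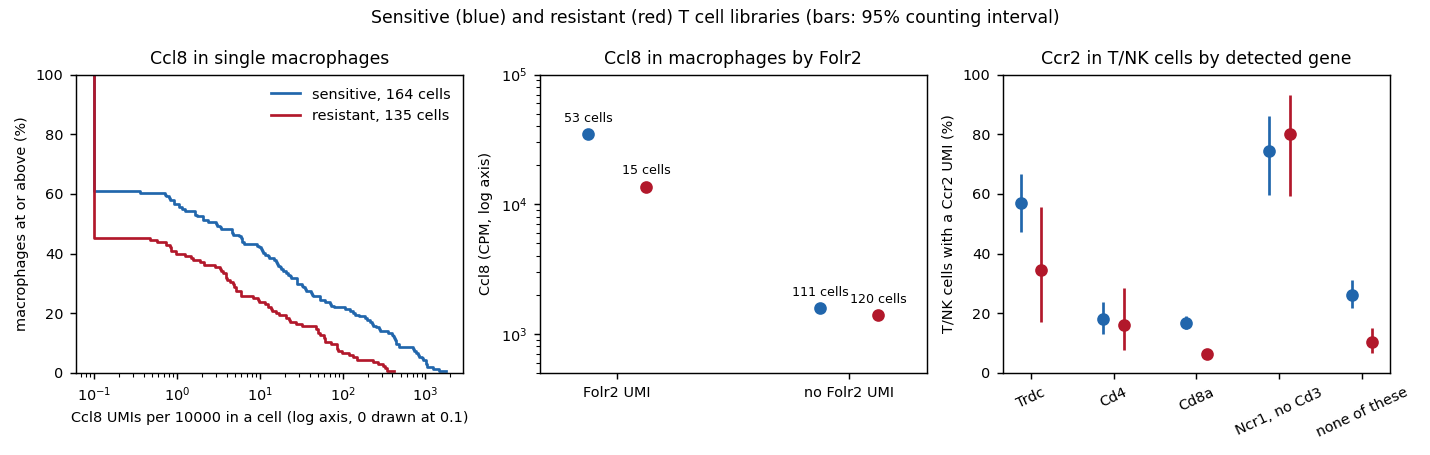
Left, share of macrophages (%) at or above each Ccl8 level (UMIs per 10000, log axis) in the sensitive (blue, 164 cells) and resistant (red, 135 cells) T cell library. Middle, Ccl8 level (CPM, log axis) in macrophages with and without a Folr2 UMI, where the libraries differed 2.54 times with it and 1.13 times without. Right, share of T/NK cells (%) with a Ccr2 UMI by group of detected lineage genes, with cells in none of the groups last. Bars are 95% counting intervals.

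Ccl11, eotaxin-1, was a fibroblast transcript. Fibroblasts held 2083 CPM (2058 to 2108) in sensitive tumors and 1397 CPM (1373 to 1420) in resistant ones, 97.7% and 97.6% of its UMIs, and 91.2% and 94.7% of fibroblasts had at least 1. The ratio was 1.49 (1.46 to 1.52). In the other 6 gates its level was at most 11.5 CPM, from 4 UMIs, and 0 UMIs were counted in monocytes of either library, which allows at most 17.8 and 8.16 CPM. Among single fibroblasts the middle 50% of cells ran from 5.69 to 24.0 Ccl11 UMIs per 10000 in the sensitive library and from 4.92 to 17.3 in the resistant one, while for Ccl2 they ran from 0 to 10.8 and from 0 to 12.5.

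Ccl24, eotaxin-2, was a phagocyte transcript, with 11 and 9 UMIs in all fibroblasts. Macrophages held 608 and 367 CPM (ratio 1.66, 1.50 to 1.83) and monocytes 392 and 653 CPM (ratio 0.601, 0.450 to 0.792), so macrophages were the higher of the 2 gates in the sensitive library and monocytes in the resistant one. In monocytes 1 cell gave 48.5% and 30.4% of the Ccl24 UMIs, and without those cells the ratio was 0.468. The eotaxin receptor gene Ccr3 had at most 9 UMIs in any of these gates of either library. Both eotaxins were thus counted in libraries that held no group of cells with eosinophil markers.

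Ccl6 and Ccl9, neighbours on chromosome 11 and ligands of Ccr1, were phagocyte transcripts, and Ccl6 was the only 1 of the 10 genes with enough UMIs to compare in neutrophils. In macrophages Ccl6 stood at 3623 and 2319 CPM (ratio 1.56, 1.50 to 1.63), in monocytes at 1876 and 2398 CPM (0.782, 0.686 to 0.891) and in neutrophils at 1321 and 1476 CPM (0.895, 0.794 to 1.01). At the common depth 55.2% and 54.8% of macrophages and 36.8% and 36.9% of neutrophils had a Ccl6 UMI, beside 1.27% and 0.437% of T/NK cells. Ccl9 stood at 750.4 and 467 CPM in macrophages (ratio 1.61, 1.47 to 1.76), at 623 and 859 CPM in monocytes (0.726, 0.576 to 0.908) and at 17.3 and 37.7 CPM in neutrophils. For both genes the ratio was above 1 in macrophages and below 1 in monocytes, each short of 2-fold, except that with the mean over cells monocyte Ccl6 stood at 1.07. Cells with a Ccl6 UMI more often had a Ccl9 UMI than cells without: 50% against 13.7% of macrophages in the sensitive library and 35.1% against 11.5% in the resistant one. Ccr1, their receptor gene, was highest in neutrophils, at 1076 and 745 CPM.

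In fibroblasts Ccl9 was past 2-fold at a low level. It stood at 11.3 CPM in sensitive tumors (147 UMIs in 60 cells) and at 2.91 CPM in resistant ones (29 UMIs in 27 cells), a ratio of 3.89 (2.60 to 6.01). A single cell gave 29.3% of the sensitive UMIs, and without the highest cell of each library the ratio was 2.93. At the common depth 1.14% (0.523 to 2.15) of sensitive fibroblasts and 0 of 583 resistant ones (0 to 0.631%) had a Ccl9 UMI, beside 0.559% and 0% of T/NK cells, so the share lay near the background.

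Pf4 was a macrophage transcript and showed no platelet pattern. Macrophages held 707 and 647 CPM, 77.0% and 80.9% of all its UMIs, a ratio of 1.09 (1.01 to 1.19). In the resistant library a single macrophage gave 53.0% of the UMIs, and without the highest cell of each library the ratio was 2.02. At the common depth 28.2% and 16.3% of macrophages had a Pf4 UMI. Monocytes held 113 and 87.0 CPM, from 19 and 32 UMIs, of which 2 and 5 were left without the highest cell of each library. Of the 116 and 91 cells with Pf4, 106 and 76 also had a UMI of a C1q complement gene, which macrophages express, and 1 in each library had a UMI of the platelet chemokine gene Ppbp.

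Ccr2 was highest in monocytes in both libraries. Monocytes held 707 and 438 CPM (ratio 1.61, 1.26 to 2.06), macrophages 119 and 94.1 CPM (1.27, 1.03 to 1.57, but 0.855 with the mean over cells), T/NK cells 96.1 and 28.7 CPM and dendritic cells 23.7 and 41.7 CPM from 8 and 21 UMIs. Fibroblasts held 0.308 and 0.401 CPM, with a UMI in 0.375% and 0.514% of cells at a median of 13324 and 13699 UMIs per cell, against 4023 and 4522 in T/NK cells. In the sensitive library the intervals of macrophages (104 to 136) and T/NK cells (90.2 to 102) did not overlap, and in the resistant library those of dendritic (25.8 to 63.7) and T/NK cells (25.6 to 32.2) did, so the order of these last gates is not fixed by the counts. T/NK cells, being the most numerous, held 65.3% and 39.2% of all Ccr2 UMIs.

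The T/NK ratio of Ccr2 was 3.35 (2.94 to 3.82), with a UMI in 22.2% of sensitive and 8.61% of resistant cells, or 8.33% and 2.89% at the common depth. In this gate the median gene tested stood 0.15 log2 units above 1, and relative to it the Ccr2 ratio was 3.02. The split below by detected gene was made after the Ccr2 values had been seen. The Trdc, Cd4 and Cd8a groups also required a UMI of a Cd3 gene. Cells of the Cd4 and Cd8a groups had no UMI of each other's gene or of Trdc. Cells with a UMI of Trdc, the constant gene of the delta T cell receptor chain, held 359 and 201 CPM (107 and 26 cells, ratio 1.78, 1.16 to 2.87). Cells with a UMI of the natural killer receptor gene Ncr1 and of no Cd3 gene held 358 and 249.7 CPM (47 and 25 cells, ratio 1.44, 1.02 to 2.03). Among Cd8a-positive cells, the most numerous, the level was 60.5 and 18.6 CPM (1258 and 1515 cells, ratio 3.25, 2.70 to 3.92), and among Cd4-positive cells 85.2 and 78.9 CPM (211 and 56 cells, ratio 1.08, 0.642 to 1.92). Cells in none of these groups, which may still hold a UMI of these genes, had 122 and 38.9 CPM (360 and 214 cells, ratio 3.15, 2.25 to 4.53). Past 2-fold were thus the Cd8a-positive cells and those in none of the groups.

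Several of the other chemokines past 2-fold in T/NK cells came from few cells. Ccl2 stood at 30.3 and 1.52 CPM (ratio 19.9), Ccl6 at 31.6 and 5.14 CPM (6.14), Ccl7 at 13.1 and 1.81 CPM (7.26), and Ccl24 had 84 UMIs in 10 cells against 0 UMIs, which is 28.8 times as high when 3 UMIs are set for the resistant library and has a counting interval that starts at 22.9. In the sensitive library 19 of the 1983 T/NK cells (0.958%) had 2 or more macrophage markers, and they held 86.1% of the Ccl2, 82.6% of the Ccl6, 62.7% of the Ccl7 and 96.4% of the Ccl24 UMIs of this gate. The resistant library had 22 such cells (1.20%), with 0 of its 16 Ccl2 UMIs, 14.8% of the Ccl6, 10.5% of the Ccl7, 20.7% of the Ccl8 and 73.3% of the Ccl9 UMIs. Ccl8 stood at 14.3 and 2.76 CPM, Ccl9 at 9.21 and 1.43 CPM and Ccl11 at 5.10 and 1.14 CPM, with 16.4%, 34.0% and 0% of the sensitive UMIs in those cells. These ratios depended on the processing: with the mean over cells Ccl2 stood at 7.94 and Ccl7 at 3.86, and with a mitochondrial limit of 20% in place of 10% Ccl6 stood at 2.44, Ccl9 at 3.48 instead of 6.45 and Ccl24 at 17.7. T/NK cells with 2 or more of 8 macrophage markers, 2 or more of 8 fibroblast markers or 3 or more of 8 markers common to mononuclear phagocytes were then left out, while cells with fewer such markers stayed in. In the remaining 1861 and 1737 cells 5 of 6 genes with enough UMIs were past 2-fold, against 4.18% of 9876 genes in those cells: Ccr2 at 3.33 (2.92 to 3.81), Ccl8 at 6.86, Ccl11 at 4.30, Ccl9 at 14.8 from 55 and 4 UMIs, and Ccl7 at 3.02, while Ccl6 was at 1.46 (0.931 to 2.31). A single sensitive cell held 43 of those 55 Ccl9 UMIs. Without the highest cell of each library 12 and 3 were left, too few to compare. Then 4 of 5 genes were past 2-fold (Ccr2, Ccl8, Ccl11 and Ccl7), against 4.09% of 9770 genes treated in the same way. Ccr2 had 888 and 284 UMIs there, sensitive and resistant. Ccl8, Ccl11 and Ccl7 had 113, 46 and 43 in the sensitive library and 16, 11 and 14 in the resistant one. They passed the filter mainly through the sensitive library, so the counts of 5 of 6 and 4 of 5 also depend on the filter. With the limit of 20%, the ratio of Ccl8 in all T/NK cells went from 5.18 to 0.514. Ccl8 and Ccl11 were spread thinly, with 146 UMIs in 115 cells and 52 in 48 cells of the sensitive library, and over all kept cells of the libraries their levels were 3.72 and 1.80 times as high in the sensitive as in the resistant one. For Ccl7 and Ccr2 this ratio over all kept cells was 1.23 and 1.81. The part of RNA from other cells in these T/NK values was not tested.

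Fibroblasts were then compared by markers. Pi16, a gene of adventitial fibroblasts, was detected without the contractile genes in 643 of the 800 sensitive and 505 of the 584 resistant fibroblasts, and 43 and 17 had at least 2 UMIs each of the myofibroblast genes Acta2 and Tagln without Pi16. A further 53 and 54 had both and 61 and 8 neither. In Pi16 fibroblasts Ccl11 stood at 2112 and 1401 CPM, against 584 and 231 CPM in the Acta2 and Tagln cells, and Ccl8 at 644 and 459.8 CPM against 279 and 84.0 CPM. Ccl2 went the other way in the sensitive library, at 1082 CPM in Pi16 fibroblasts and 1658 CPM in Acta2 and Tagln cells, and was alike in the resistant one, at 1271 and 1273 CPM. Cells with both marks had the highest Ccl2 of the 4 subsets in each library, 2153 and 3416 CPM, and the highest Ccl11, 4103 and 1707 CPM. These subsets differed in depth, with a median of 12690 and 12783 UMIs in Pi16 cells and 30133 and 31201 in Acta2 and Tagln cells, so that a marker is more easily detected in the latter, and Pi16 was also found in 12.5% and 11.9% of neutrophils.

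Within subsets the contrast between the libraries was not uniform. For Ccl11 the ratio was 1.51 (1.47 to 1.54) in Pi16 cells, 2.53 (2.10 to 3.07) in Acta2 and Tagln cells and 2.40 (2.31 to 2.50) in cells with both, but 0.545 (0.457 to 0.653) in the 61 and 8 cells with neither. For Ccl2 it was 0.852 (0.828 to 0.877), 1.30 (1.20 to 1.42), 0.630 (0.605 to 0.656) and 3.14 (2.41 to 4.18) in the same order. Ccl7 ran from 0.778 in cells with both to 1.74 in cells with neither, and Ccl8 from 0.452 in cells with neither to 3.32 in Acta2 and Tagln cells. Pi16 cells were 80.4% and 86.5% of the gate.

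**Figure D4:**
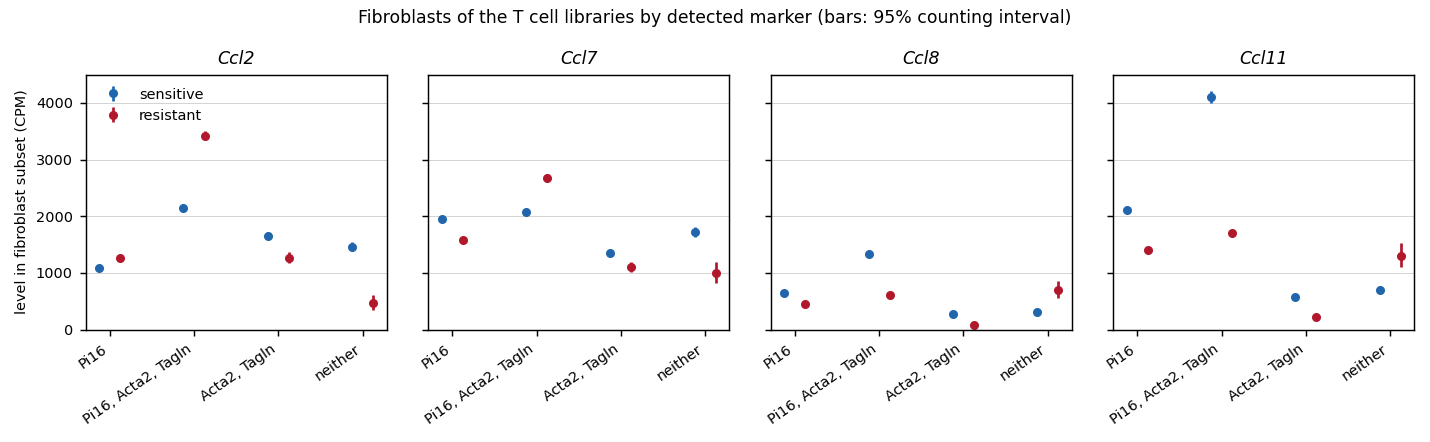
Level (CPM) of Ccl2, Ccl7, Ccl8 and Ccl11 in fibroblasts of the sensitive (blue) and resistant (red) T cell library, split by detection of Pi16, of Acta2 and Tagln (at least 2 UMIs each), of both or of neither, with 95% counting intervals. Ccl11 was lowest in cells with Acta2 and Tagln alone, at 584 and 231 CPM.

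The genes whose levels ran most nearly with each of the 10 were sought over 14 sums (7 gates in each T cell library), among 11193 genes. The sums share libraries and lineages, so r is a description. Ccl11 ran with Cpxm1, Pcsk5 and Ms4a4d (r = 0.998 to 0.997), and Ccl7 with Plxdc2, Colec12 and Tnfsf12 (0.975 to 0.964). Ccl2 ran with Tmem119, Mmp19 and Dram1 (0.962 to 0.949), and Ccl8 with Itga9, Ch25h and 1700003F12Rik (0.975 to 0.953). Ccl12 and Pf4 were each other's nearest gene (0.994), followed for both by Trem2. Ccl24 ran with Msr1, Ms4a4a and C3ar1 (0.990 to 0.985), Ccl9 with Tfec, Apobec1 and Msr1 (0.985 to 0.980), and Ccl6 with Fcgr4, Clec4a2 and Gm21188 (0.981 to 0.979). Ccr2 ran with Tgfb1, Ms4a4c and Tbc1d22a at the lowest first-place r of the 10, 0.953.

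Other chemokine genes and receptors were taken from lists chosen with earlier results known, and the shares of all genes past 2-fold were 4.00% in fibroblasts, 2.61% in macrophages and 6.95% in monocytes. Among 11 receptor genes, 5 had enough UMIs in fibroblasts and 1 was lower in the sensitive library (Cx3cr1, the fractalkine receptor, 1.23 and 5.72 CPM), and none of 4 in macrophages or 3 in monocytes was past 2-fold. Among 12 other CC chemokines, Ccl19, a T cell and dendritic cell attractant, was higher in sensitive fibroblasts (32.4 and 10.8 CPM, ratio 2.99, 2.42 to 3.73) and Ccl4 lower (4.78 and 16.4 CPM), of 5 compared. In macrophages Ccl17, a ligand of Ccr4, was higher (97.9 and 6.81 CPM, ratio 14.4, 7.86 to 29.3) and Ccl4 lower (747 and 1844 CPM, ratio 0.405, 0.380 to 0.432), of 4 compared, and in monocytes Ccl5 was lower (1 and 51 UMIs), of 3. Of 5 genes for colony-stimulating factor 1, interleukin 34, interleukin 5 and their receptors, 3, 2 and 1 could be compared in fibroblasts, macrophages and monocytes, and none was past 2-fold.

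The whole-tumor libraries asked the same of untreated and treated tumors with far fewer cells outside the neutrophils. They held 8, 1 and 5 fibroblasts (control, sensitive, resistant), 7, 4 and 33 macrophages, 5, 6 and 8 monocytes, 301, 215 and 125 neutrophils, 29, 2 and 41 cancer cells, 47, 2 and 13 T/NK cells (9.63%, 0.743% and 4.94% of kept cells) and no dendritic cells. Each direction between whole-tumor libraries below holds only under the titles, which the source field of the resistant-titled library goes against. The authors reported the highest share of T cells in the sensitive tumor. By title the T/NK share here was lowest in the sensitive library, with gates set otherwise than theirs, and the reason was not tested. Ccl8 and Ccl12 were highest in macrophages in each of the 5 libraries, whereas for Ccl2, Ccl6, Ccl9 and Ccl24 the highest gate differed between libraries, among the T cell libraries too. In fibroblasts Ccl11 stood at 612 CPM in the control and 1075 CPM in the resistant library and was at 0 UMIs in macrophages, monocytes, neutrophils, cancer and T/NK cells of all 3 libraries. Ccl12 and Ccl24 had 0 UMIs in fibroblasts.

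**Figure D5:**
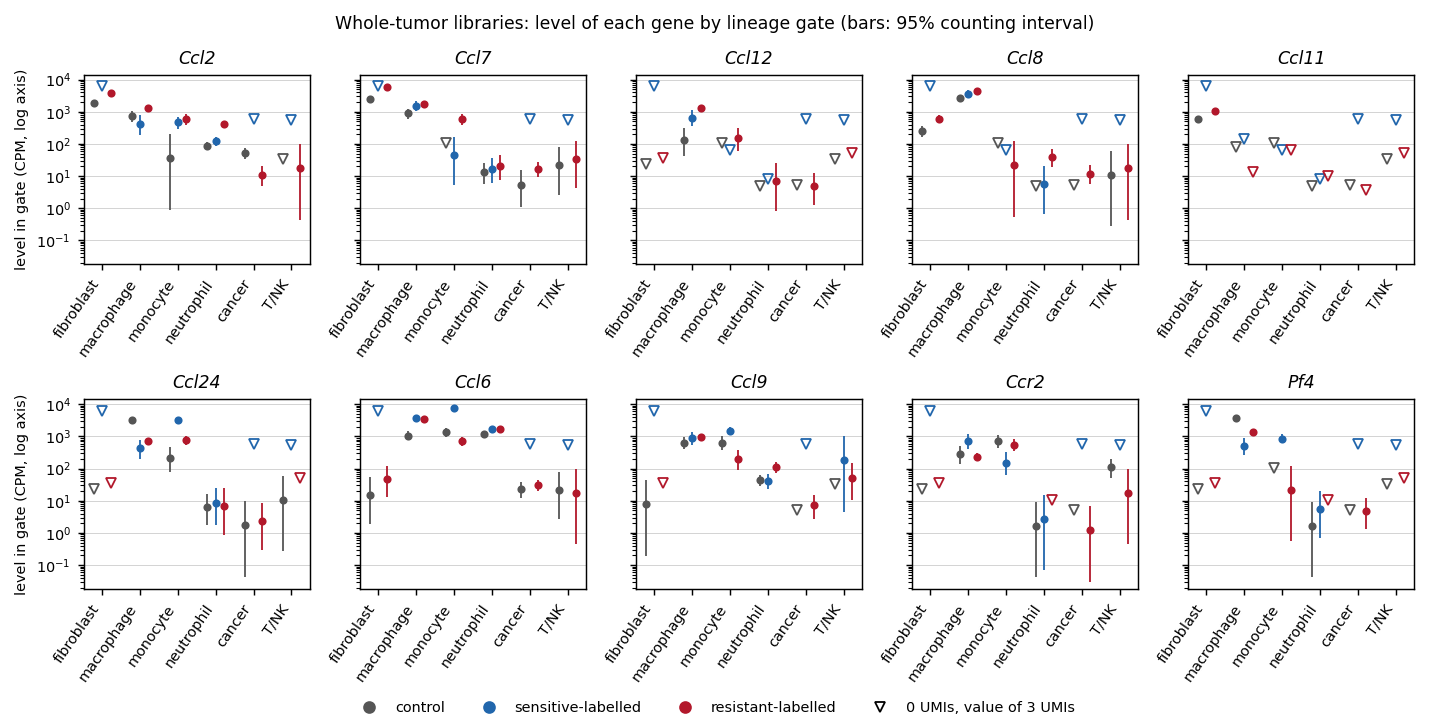
Level of each of the 10 genes (CPM, log axis) in 6 lineage gates of the whole-tumor libraries titled control (grey), sensitive (blue) and resistant (red), with 95% counting intervals and open triangles, at the value of 3 UMIs, where a gate had 0 UMIs. Neutrophil Ccl6 lay between 1234 and 1745 CPM in the 3 libraries.

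Neutrophils gave the only whole-tumor comparison with over 100 cells in each library. Ccl6 stood at 1234 CPM (1147 to 1325) in the control, 1745 CPM (1611 to 1887) in the sensitive and 1687 CPM (1541 to 1844) in the resistant library. Both treated libraries were thus above the control, by 1.41 (1.27 to 1.57) and 1.37 times (1.22 to 1.53), and apart from each other by 1.03 times (0.917 to 1.17). Ccl2 stood at 86.9, 119 and 425 CPM, and resistant over control the ratio was 4.89 (3.52 to 6.88), with 36.6% of the 123 resistant UMIs in 1 cell. A Ccl2 UMI was found in 6.64%, 6.05% and 23.2% of neutrophils, or in 5.99%, 5.03% and 15.0% at the common depth. Cancer cells of the control and resistant libraries held 50.6 and 10.8 CPM of Ccl2, 93.1% of the control UMIs in 1 cell, and none had a UMI at the common depth. The summed level of the 8 macrophage markers in neutrophils was 14.8, 22.2 and 38.0 CPM, each marker found in at most 2.4% of cells and 4, 2 and 2 of them at 0 UMIs, and the part of RNA from other cells in the neutrophil Ccl2 was not tested. Ccl9 stood at 44.3, 41.7 and 111 CPM, and resistant over control the ratio was 2.50 (1.45 to 4.33).

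In the 7, 4 and 33 macrophages of the whole tumors Ccl8 stood at 2586 CPM (2102 to 3149), 3675 CPM (2905 to 4587) and 4406 CPM (4133 to 4693), so the resistant-titled library was not below the sensitive one. All 78 Ccl8 UMIs of the sensitive library came from 1 of its 4 macrophages, and 67.7% and 46.1% of those of the control and resistant libraries from 1 cell each. Ccl7 and Ccl2 in these macrophages stood at 888, 1508 and 1759.8 CPM and at 732, 424 and 1314 CPM, and Ccl12 at 131, 659.7 and 1314 CPM. Pf4 in the control library came to 95.0% from 1 of 7 macrophages. In the whole tumors Pf4 was found in 6, 8 and 30 cells, of which 4, 2 and 27 had a UMI of a C1q gene.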

How the data were processed

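UMI counts of 5 droplet libraries (2 T cell, 3 whole tumor) were analysed. The authors aligned reads to mm10 with Cell Ranger and deposited raw UMI counts per gene and barcode, made per the file headers with Cell Ranger 6.0.0 (T cell) and 3.0.1 (whole tumor) on different feature lists, so the sets were never compared with each other. Kept T cell library barcodes had 500 genes or more and a mitochondrial share up to 10%, whole-tumor barcodes 200 genes or more and up to 20% (all mitochondrial genes had 0 UMIs there). The highest Scrublet scores, 0.8% per 1000 barcodes, were removed as putative doublets from the T cell libraries (112 sensitive, 159 resistant) and none from the others. A cell joined the lineage with most of 8 detected markers, given at least 3 and a lead of at least 2. Phagocytes were then split by 8 macrophage, monocyte or dendritic markers (at least 2, lead at least 1). These thresholds were set on the markers.

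UMIs were summed by gate as CPM. Poisson intervals (CPM), conditional binomial intervals (ratios) and Clopper-Pearson intervals (shares) are exact, at 95%, and cover counting error only, since 1 library per group allows no test. The ratio rule was tested on simulated counts. Cells were thinned to 1000 UMIs for shares at a common depth, leaving out shallower cells (11 and 1 fibroblasts and 14 and 4 T/NK cells, sensitive and resistant, for example). Named genes were all 10 members, genes of the 3 other lists past 2-fold in the fibroblast, macrophage or monocyte gate, and for each member the 3 genes with at least 200 UMIs and the highest Pearson r of log2(CPM + 10) over gate sums of at least 20 cells. Genes of the lists past 2-fold in T/NK, dendritic or cancer cells were named after their values had been seen. Members and lists were chosen with earlier results of these data known, and the splits by Folr2, by Mrc1, by T/NK genes and by foreign markers after the members' levels had been seen. Python 3.11.15, scanpy 1.11.5, scipy 1.17.1 and matplotlib 3.10.9 were used. Alternatives changed the gates, mitochondrial limit, doublets, weighting, scaling and depth.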

Additional observations from a re-analysis of the deposited data

How the results depend on the processing

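No paired analysis was possible because each group is 1 library and the labels give no replicate numbers, and for the same reason no replicate could be left out. Of 192 recomputed ratios of the 10 genes, 160 stayed inside the counting interval of the reported value, 31 left it and 1 reversed. Ratios short of 2-fold that crossed 1 were macrophage Ccr2 (0.855) and monocyte Ccl6 (1.07) with the mean over cells and neutrophil Ccl6 (1.04) with a mitochondrial limit of 20%. With 1 more marker required per gate, 3 genes instead of 1 were past 2-fold in monocytes (Ccl2 at 2.09, Ccl7 and Ccl12), and with the mean over cells 2 were (Ccl7 and Ccl12). Without doublet removal 2 genes instead of 1 were past 2-fold in fibroblasts, Ccl6 joining at 0.395. With a mitochondrial limit of 20% the T/NK ratio of Ccl8 reversed to 0.514 (the cause was not tested). A further 3 alternatives were chosen after the data had been seen. Leaving out T/NK cells with 2 or more macrophage or fibroblast markers or 3 or more phagocyte markers gave 5 of 6 genes compared past 2-fold, instead of 8 of 8. Leaving out the highest cell of each library as well gave 4 of 5. These counts, and that of the whole gate, depend on the filter, which most genes passed mainly through the sensitive library. The shares of all genes past 2-fold were 4.93% in the whole T/NK gate and 4.18% and 4.09% in these alternatives. Leaving out macrophages with a Folr2 UMI took the Ccl8 ratio from 4.68 to 1.13. It left 1 of 9 genes past 2-fold, Ccl7 (0.388), in place of Ccl8, against 1.62% of all genes there. Across 6 other settings macrophage Ccl8 ran from 4.05 to 5.22, fibroblast Ccl11 from 1.40 to 1.49, fibroblast Ccl2 from 0.733 to 0.814 and T/NK Ccr2 from 3.02 to 3.97. Monocyte values rest on 21 and 35 cells and whole-tumor macrophage values on 4 to 33.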

Other observations

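Cells outside the lineages above also held some of these transcripts. In the mast cell or basophil gate of the sensitive T cell library 13 cells held 70 Ccl2 UMIs (1904 CPM, found in 61.5% of the cells, with 57.1% of the UMIs in 1), and 5 cells of the resistant library held 6 (149 CPM). In the resistant library 1 of 6 endothelial cells held 67 Ccl2 UMIs and the other 5 none. Cells that met no gate held 4180 Ccl8 UMIs in the sensitive library (177 cells, 3298 CPM, 43.8% of the UMIs in 1 cell) and 282 in the resistant one (142 cells, 208 CPM). The phagocytes that could not be split held 6237 CPM of Ccl6 in the resistant library (23 cells, 71.2% of the UMIs in 1) and 1852 CPM in the sensitive one (25 cells).

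T/NK cells carried other genes of the same pathways, named here after their values had been seen. Past 2-fold and higher in the sensitive library were 3 of 6 receptor genes compared (Ccr8, Ccr1 and Cxcr3), 2 of 7 other CC chemokines (Ccl1 and Ccl3, with Ccl22 lower) and 1 of 2 growth factor genes (Il5), against 4.93% of all genes tested. Ccr8, the receptor of Ccl8, stood at 115 and 39.6 CPM in T/NK cells, sensitive and resistant (ratio 2.91, 2.60 to 3.26), with a UMI in 20.2% and 14.1% of cells. Il5, the growth factor gene of eosinophils, had 688 and 18 UMIs in these cells (67.4 and 1.71 CPM, ratio 39.4, 24.7 to 66.8). The make-up of the T/NK gate differed between the libraries, with 211 and 56 Cd4-positive and 107 and 26 Trdc-positive cells. Ccr8 and Il5 were not compared within these groups. In dendritic cells, where none of the 10 genes could be compared, Ccl22 stood at 676 and 187 CPM (ratio 3.62, 2.84 to 4.66) and Ccl5 at 29.7 and 506 CPM (ratio 0.0586, 0.0278 to 0.110), in 26 and 45 cells, the genes past 2-fold of 4 other CC chemokines compared, against 3.48% of all genes tested. Ccrl2, the only receptor gene compared there, had a ratio of 2.87 (1.75 to 4.81). In cancer cells Ccl5, the only other CC chemokine compared, had a ratio of 4.34 (3.32 to 5.74). Cx3cr1, 1 of 2 receptor genes compared there, had 2.05 (1.12 to 3.86), against 2.29% of all genes tested.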
